A study of Homo sapiens with 18 samples.

Results

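The mitochondrial carriers of the SLC25 family are described here across 3 human cell lines in normoxia and hypoxia. Members were all genes of the count files whose symbol begins with SLC25A and a number, together with UCP1, UCP2 and UCP3, which are SLC25 proteins under older names, and MPC1 and MPC2, the subunits of the mitochondrial pyruvate carrier. This gave 55 genes of the 23106 in the files, of which SLC25A3P1 and SLC25A51P1 are pseudogenes with 0 counts in every sample.

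Mitochondria burn and build with metabolites that cannot cross their inner membrane unaided. SLC25 carriers are small proteins of that membrane that swap or co-transport ADP and ATP, phosphate, di- and tricarboxylates, amino acids, nucleotides, cofactors and iron, and the uncoupling proteins belong to the same fold. The pyruvate carrier is built differently but stands at the same gate, where the product of glycolysis enters the organelle, and hypoxia is known to turn cells towards glycolysis.

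PolyA+ RNA was sequenced from HKC-8, a kidney proximal tubule line, from the kidney cancer line RCC4+VHL and from the hepatocellular cancer line HepG2, with 3 normoxic and 3 hypoxic samples of each, 18 in all. RCC4 cells have lost VHL, the factor that marks the hypoxia-inducible factors (HIF) for destruction, and the cells used here carry it again, so their normoxic samples are a VHL-competent control. By the labels hypoxia was 0.5% oxygen for 16 h in HKC-8 and HepG2 cells and 1% for 24 h in RCC4+VHL cells, although 0.1% stands in the sample names of hypoxic HKC-8. The study itself describes the same exposure for all lines, so the dose and time in RCC4+VHL are uncertain. The dose in HKC-8 is uncertain because of its sample names. Nothing in the labels says whether replicates were separate cultures, so the p-values below measure only the spread between these samples.

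Total counts were 75441764 to 97984260 in HKC-8 and 40915980 to 51794355 in the other lines, so depth and cell line cannot be told apart in comparisons with HKC-8. Of the 6 hypoxia-induced genes used to check the labels (CA9, NDRG1, VEGFA, BNIP3, EGLN3, SLC2A1), every one that was tested rose in hypoxia, 6 in HKC-8, 4 in RCC4+VHL and 6 in HepG2 cells. The 8 liver markers summed to at least 33500 CPM (read counts scaled to a common library size) in HepG2 samples and to at most 11.2 CPM in the kidney lines. Of 9 kidney markers, 6 stood under 1 CPM in HKC-8 cells, where PAX8 and CDH16 were among those above it. Within lines the liver markers summed to 33500 to 34900 CPM in normoxic and 38800 to 42100 CPM in hypoxic HepG2 samples, and the kidney markers to 725 to 755 against 625 to 689 CPM in RCC4+VHL and 156 to 200 CPM throughout HKC-8. The part of these shifts in the results below was not tested. Levels are TMM-normalized CPM on 1 scale for all samples. In bulk RNA, fewer cells of a kind and less RNA per cell cannot be told apart.

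Carriers were called lower in hypoxia more often than genes at large in RCC4+VHL and HepG2 cells, and seldom higher. A gene was called when edgeR's quasi-likelihood test gave a Benjamini-Hochberg adjusted p under 0.05 over all genes tested in that line. In RCC4+VHL cells 19 of 43 tested members (44.2%) fell and 3 (6.98%) rose, where 24.2% of all genes tested fell and 25.9% rose. In HepG2 cells 17 of 46 (37%) fell and 4 (8.7%) rose, against 19.2% and 19.9% of all genes. In HKC-8 cells 6 of 47 (12.8%) fell and 6 rose, against 9.12% and 11.2% of all genes.

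The HKC-8 count was the least stable of these. Same-numbered normoxic and hypoxic HKC-8 samples deviated together, and with the replicate number as a block 18 of 47 members (38.3%) fell and 7 (14.9%) rose in that line, against 21.6% and 21% of all genes. Without normoxic replicate 1 only 4 HKC-8 calls remained, and without hypoxic replicate 1 there were 5, down from 12. Calls over all genes dropped as well. Of all genes 5% rose and 2.37% fell without the former sample, and 5.49% and 2.5% without the latter, against 11.2% and 9.12% with all samples. SLC25A12, SLC25A36, SLC25A37 and SLC25A45 were called in HKC-8 under every alternative tried. In 1 fit of all 18 samples, with 1 shared estimate of spread, 22 members were called in HKC-8 and 11 instead of 22 in RCC4+VHL. Calls over all genes moved the same way, to 16.4% higher and 16.4% lower in HKC-8 and 12.2% and 9.27% in RCC4+VHL. The RCC4+VHL calls of MPC2, SLC25A1, SLC25A5, SLC25A10, SLC25A12, SLC25A13, SLC25A22, SLC25A23, SLC25A24 and SLC25A38 were among those lost in that fit, with adjusted p-values from 0.0789 to 0.322, as were the HepG2 calls of SLC25A39 (0.148), SLC25A42 (0.204) and SLC25A45 (0.0524).

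**Figure D1:**
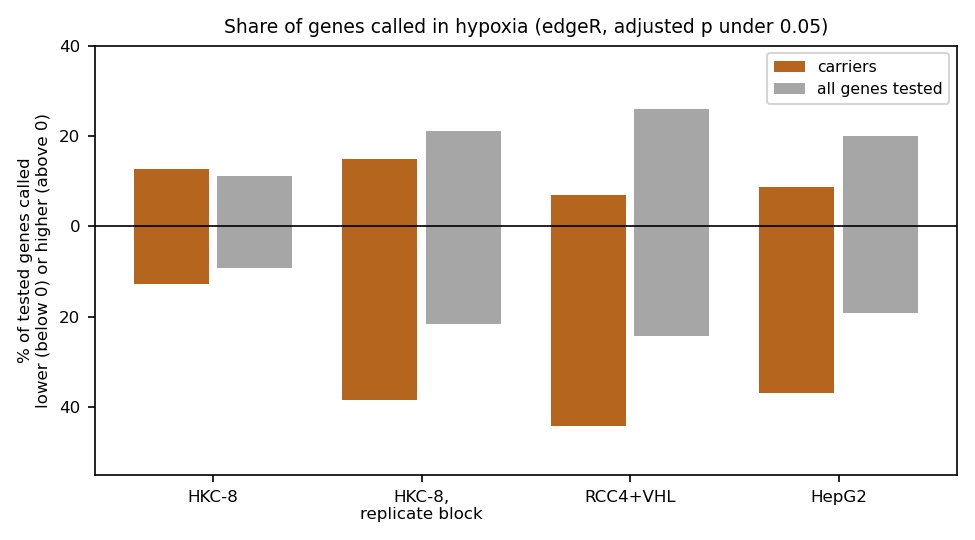
Percentage of tested genes called higher (above 0) or lower (below 0) in hypoxia, for the carriers (brown) and all genes tested (grey), in each line and for HKC-8 also with the replicate number as a block. The brown bars reach further down than the grey ones in RCC4+VHL (44.2% against 24.2%) and HepG2 (37% against 19.2%), and for HKC-8 mainly with the block (38.3% against 21.6%).

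The changes were small. The median log2 fold change of the members was −0.19 in HKC-8, −0.15 in RCC4+VHL and −0.18 in HepG2 cells, where the medians of all genes lay within 0.004 of 0. The share of members below 0 was 61.7%, 72.1% and 76.1% in that order, beside 49.4%, 50.2% and 50.6% of all genes. Called changes of at least 1.5-fold numbered 5, 2 and 7. Across the 42 members tested in all 3 lines, 1 was called higher in each (SLC25A36) and 2 lower in each (SLC25A17 and SLC25A33), beside 3.81% and 3.43% of the 11418 genes tested in all 3. With the block in HKC-8 the number lower in each line was 8, MPC2, SLC25A11, SLC25A25, SLC25A38 and SLC25A44 being among those added, and the shares of all genes were then 6.51% lower and 5.67% higher.

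**Figure D2:**
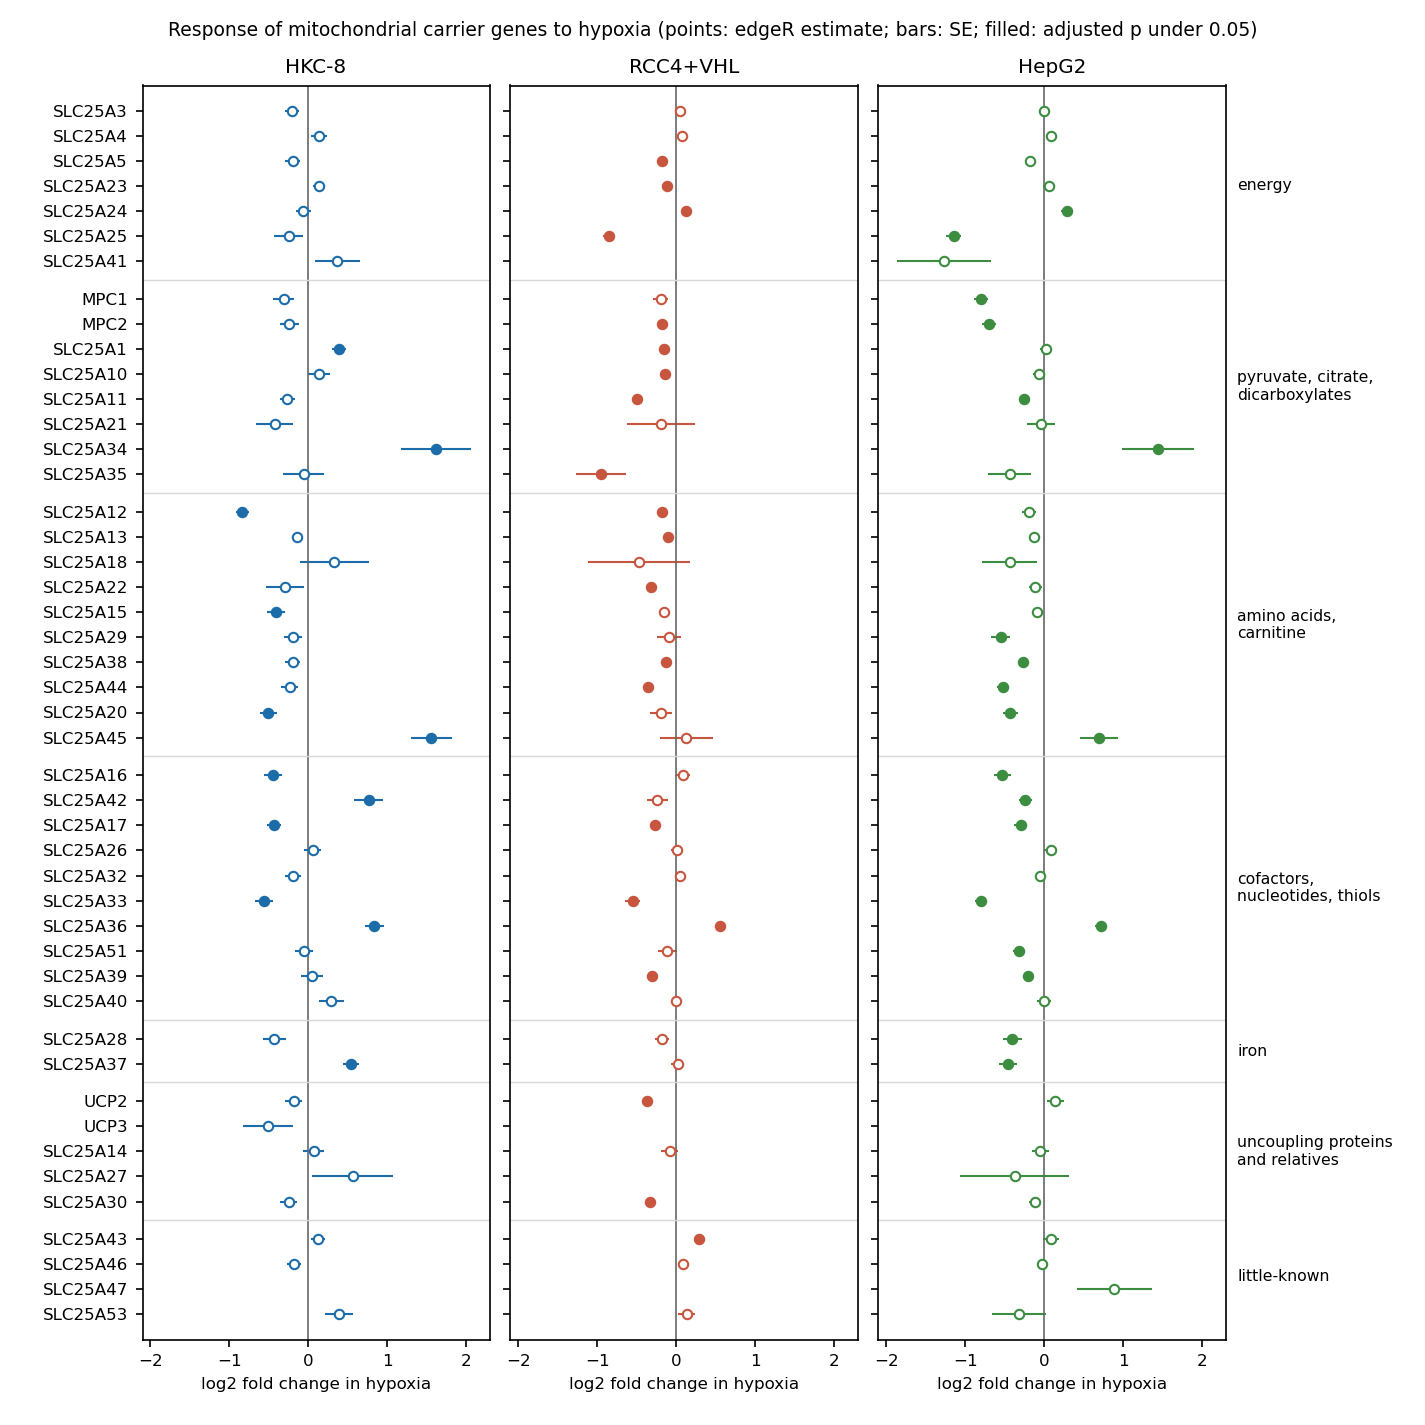
Log2 fold change in hypoxia (x axis) of tested members in each line, grouped by the cargo of the carrier, with bars of 1 SE from 3 samples per condition and filled points for an adjusted p under 0.05. Filled points lie mostly left of 0, SLC25A36 lies to the right in all 3 lines, and SLC25A6 is left out because its counts cannot be read as a level.

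SLC25A36 and SLC25A33 are sister carriers of pyrimidine nucleotides, which supply the mitochondrion with building blocks for its own DNA and RNA, and they moved in opposite directions in every line. SLC25A36 (chr3:140660672-140699837, forward strand, GRCh37) stood at 110.4, 101 and 127 CPM in normoxic and 214, 170 and 219 CPM in hypoxic HKC-8 cells. In RCC4+VHL cells it stood at 107, 103 and 114 CPM before and 158, 159 and 159 CPM in hypoxia, and in HepG2 cells at 56.3, 53.6 and 63.0 against 102, 94.7 and 88.3 CPM. In no line did a hypoxic sample overlap the normoxic ones. The log2 fold changes were 0.84 ± 0.12 (SE, adjusted p = 0.00253) in HKC-8, 0.56 ± 0.04 (4.97e-11) in RCC4+VHL and 0.72 ± 0.07 (5.69e-06) in HepG2, all by edgeR.

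SLC25A33 (chr1:9599524-9645231, forward strand, GRCh37) stood at 86.4, 91.1 and 78.3 CPM in normoxic HepG2 cells and at 50.4, 47.4 and 48.9 CPM in hypoxia. In HKC-8 cells the values were 21.6, 21.4 and 17.9 CPM against 14.7, 13.4 and 13.0 CPM, and in RCC4+VHL cells 11.2, 12.5 and 11.6 against 7.38, 7.53 and 9.13 CPM. Again no hypoxic sample reached the lowest normoxic one of its line, but here every hypoxic value was below. It fell by 0.80 on the log2 scale in HepG2 (SE 0.07, adjusted p = 1.31e-06), by 0.56 in HKC-8 (SE 0.11, adjusted p = 0.0106) and by 0.55 in RCC4+VHL (SE 0.10, adjusted p = 4.84e-05). Without normoxic replicate 1 the HKC-8 value was −0.52 with an adjusted p of 0.0582. Of the 50-base windows in its exons 75.4% occur once in GRCh37, and fragments without a unique position were removed by the authors, so some of its fragments may not have been counted. In SLC25A36 all such windows occur once.

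The core letters of the hypoxia response element, which HIF recognises, are marked here in the upstream region of this pair and of MPC1, the pyruvate carrier subunit that fell most. ACGTG and GCGTG were searched on both strands in RefSeq promoters of 300 bases, 250 before to 50 after the start of transcription (GRCh38.p14). The 250 upstream bases are printed 5′ to 3′ on the gene's strand, with each match in capitals, and a match on the other strand reads CACGT or CACGC.
SLC25A36 (chr3:140941586-140941835, plus strand): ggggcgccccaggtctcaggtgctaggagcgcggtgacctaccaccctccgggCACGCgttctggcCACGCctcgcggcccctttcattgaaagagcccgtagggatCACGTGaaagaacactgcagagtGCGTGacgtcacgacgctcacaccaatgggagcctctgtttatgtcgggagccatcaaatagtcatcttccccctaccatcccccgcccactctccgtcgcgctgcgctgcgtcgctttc
SLC25A33 (chr1:9539215-9539464, plus strand): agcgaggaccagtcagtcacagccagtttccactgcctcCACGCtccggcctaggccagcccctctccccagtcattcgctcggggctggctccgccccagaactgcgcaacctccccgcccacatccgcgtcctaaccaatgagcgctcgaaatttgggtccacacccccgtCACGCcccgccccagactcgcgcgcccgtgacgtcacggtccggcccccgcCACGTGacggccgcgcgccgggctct
MPC1 (chr6:166382941-166383190, minus strand): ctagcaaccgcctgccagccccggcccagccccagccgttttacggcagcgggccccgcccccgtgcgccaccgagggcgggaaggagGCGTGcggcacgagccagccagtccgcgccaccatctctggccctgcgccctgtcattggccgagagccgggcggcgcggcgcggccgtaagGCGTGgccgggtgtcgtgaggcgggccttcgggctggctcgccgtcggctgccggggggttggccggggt

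These 3 were chosen after their values were seen. In SLC25A36 the matches begin 197, 184, 143, 142 and 120 bases before the start, those at 143 and 142 being the overlapping strands of 1 palindrome, CACGTG. SLC25A33 holds the same palindrome 26 bases before its start and further matches at 211 and 77 bases, and MPC1 holds matches at 162 and 70 bases. So among these 3 the letters stand before the gene that rose and before those that fell. MPC2, which also fell in HepG2, was searched too. Its promoter 1 held no match. Its promoters 2 and 3 overlap and held the same GCGTG, beginning within 2 bases of each start. Of the 45 members with a promoter in the table, 38 (84.4%) held a match, beside 52.4% of all 27305 genes there. Among genes tested in at least 1 of these lines it was 34 of 41 members (82.9%), beside 68.5% of all. Among the matched members called higher or lower the motif was present in 5 of 5 and 4 of 5 in HKC-8, 3 of 3 and 14 of 16 in RCC4+VHL, and 4 of 4 and 13 of 14 in HepG2. The share among all genes called was not counted.

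The pyruvate carrier fell most in HepG2 cells. MPC1 (chr6:166778407-166796501, reverse strand, GRCh37) stood at 118, 119.6 and 98.6 CPM in normoxic and 68.6, 68.8 and 56.0 CPM in hypoxic HepG2 cells, a fall of 0.80 on the log2 scale (SE 0.09, adjusted p = 1.91e-05). Its partner MPC2 (chr1:167885913-167906310, reverse strand) went from 87.0, 86.9 and 69.6 CPM to 53.0, 49.2 and 47.8 CPM, a fall of 0.70 (SE 0.09, adjusted p = 3.45e-05). Both subunits are needed for a working carrier, and in HepG2 the hypoxic samples of both lay below all normoxic ones.

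In RCC4+VHL cells MPC2 stood at 301, 309 and 316 CPM in normoxia and at 266, 270.1 and 283 CPM in hypoxia, a fall of 0.17 on the log2 scale (SE 0.03, adjusted p = 0.000249, but 0.178 in the fit of all 18 samples). MPC1 there stood at 7.63, 7.81 and 8.07 against 6.68, 7.01 and 6.73 CPM, with a log2 fold change of −0.20 ± 0.10 (adjusted p = 0.0986). HKC-8 cells had 5.70, 5.46 and 5.85 against 5.08, 4.34 and 4.26 CPM of MPC1, with −0.31 ± 0.14 (adjusted p = 0.136). The MPC1 groups did not overlap in either kidney line although neither difference passed the main test. With the replicate block MPC1 in HKC-8 gave −0.31 ± 0.12 (adjusted p = 0.0532). It was called lower in HKC-8 in the fit of all 18 samples (adjusted p = 0.0188) and in RCC4+VHL with library totals alone (0.0184). MPC2 in HKC-8 stood at 35.0, 28.8 and 28.2 against 28.8, 25.5 and 23.3 CPM, with −0.24 ± 0.12 (adjusted p = 0.178) and, with the replicate block, −0.24 ± 0.07 (adjusted p = 0.0147).

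**Figure D3:**
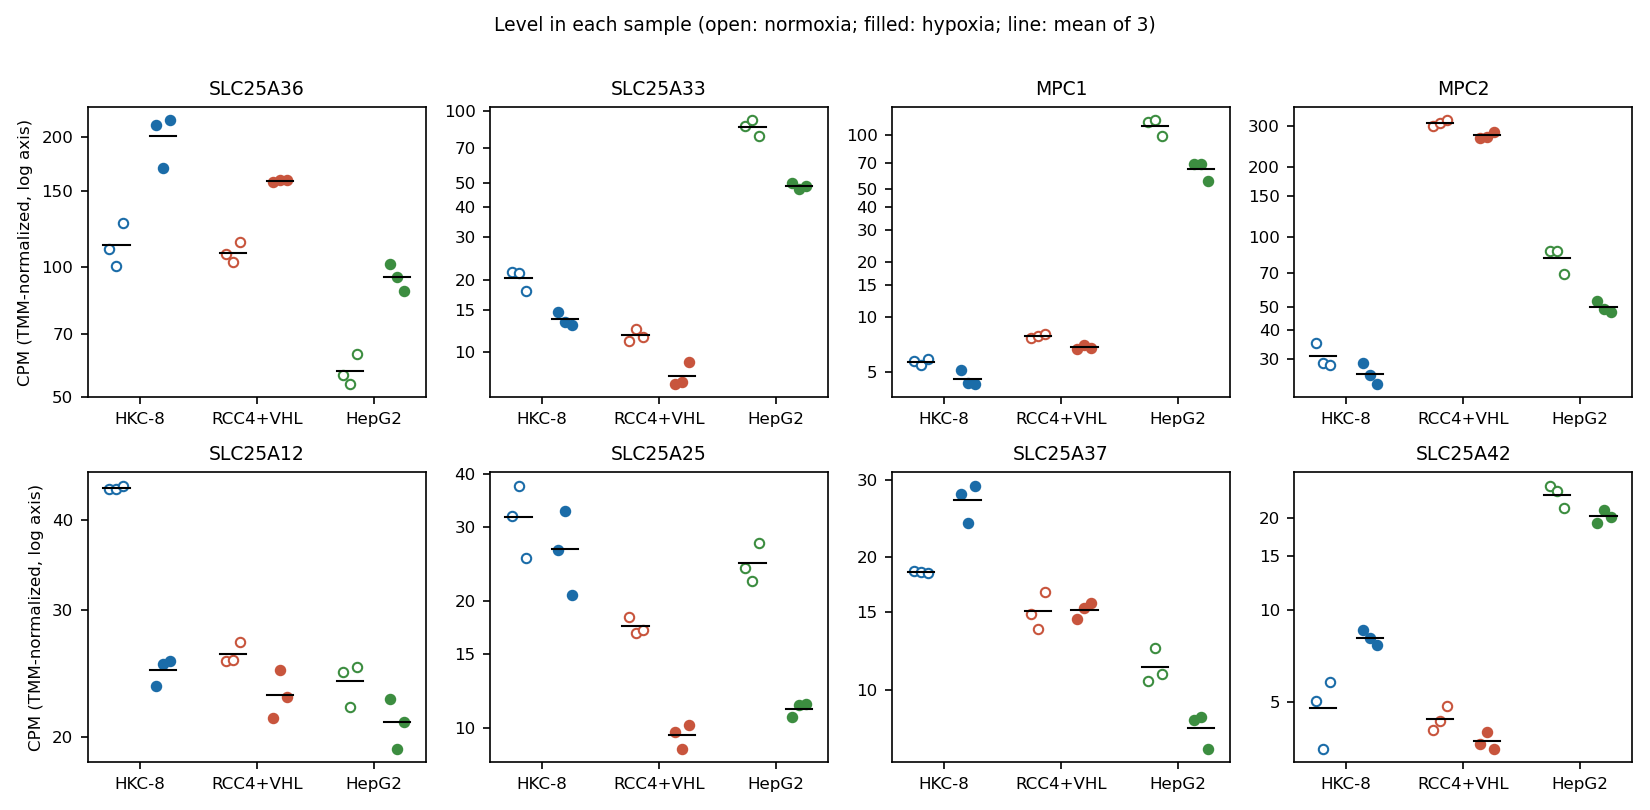
TMM-normalized CPM (log axis) of 8 members in each of the 18 samples, open for normoxia and filled for hypoxia, with the mean of 3 as a line. SLC25A36 is higher and SLC25A33 lower in hypoxia in every line, MPC1 is near 112 CPM in normoxic HepG2 and under 9 CPM in the kidney lines, and SLC25A37 and SLC25A42 are higher in hypoxic HKC-8 but lower in hypoxic HepG2.

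Of the other carriers of carbon acids, SLC25A11, which exchanges oxoglutarate for malate in the malate-aspartate shuttle, fell by 0.50 on the log2 scale in RCC4+VHL (SE 0.05, adjusted p = 4.03e-08) and by 0.25 in HepG2 cells (SE 0.07, adjusted p = 0.00983). In HKC-8 it gave −0.26 ± 0.09 (adjusted p = 0.0686), and with the block −0.27 ± 0.06 (adjusted p = 0.00722). SLC25A1, the citrate exporter that feeds fat synthesis in the cytosol, stood at 59.3, 66.2 and 71.9 CPM in normoxic and 86.0, 92.5 and 79.6 CPM in hypoxic HKC-8 cells. It rose by 0.39 there (SE 0.09, adjusted p = 0.0209) and fell by 0.15 in RCC4+VHL (SE 0.04, adjusted p = 0.00296, but 0.159 in the fit of all 18 samples), while HepG2 gave 0.02 ± 0.07 (adjusted p = 0.818). The HKC-8 rise did not pass without normoxic replicate 1 (adjusted p = 0.0967), normoxic replicate 2 (0.0579) or hypoxic replicate 1 (0.0755).

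SLC25A34 and SLC25A35, whose cargo is less well known, were rare transcripts. SLC25A34 had 10, 7 and 21 counts in normoxic and 48, 36 and 33 in hypoxic HKC-8 cells, and 9, 4 and 7 against 16, 14 and 23 in HepG2. Its log2 fold changes of 1.62 ± 0.44 (adjusted p = 0.0325) and 1.44 ± 0.46 (adjusted p = 0.0238) were among the largest of the family and rested on these few counts. Leaving out single samples gave adjusted p-values up to 0.131 in HKC-8 (without hypoxic replicate 1, with normoxic replicates 1 and 2 and hypoxic replicate 3 also above the threshold) and up to 0.111 in HepG2 (without hypoxic replicate 3, with normoxic replicate 2 also above it). In RCC4+VHL cells SLC25A34 had 1 count in 1 of 6 samples. SLC25A35 fell by 0.96 in RCC4+VHL cells (SE 0.31, adjusted p = 0.0144), from 1.13, 1.07 and 1.52 to 0.722, 0.821 and 0.352 CPM, and was not called without normoxic replicate 3 (adjusted p = 0.0779) or hypoxic replicate 3 (0.0914). In all, 2 of 8 tested carbon acid carriers rose in HKC-8, 5 of 7 fell in RCC4+VHL, and 1 rose and 3 fell of 8 in HepG2. Among all tested members 12.8% rose in HKC-8, 44.2% fell in RCC4+VHL, and 8.7% rose and 37% fell in HepG2. The shares of all genes were 11.2%, 24.2%, 19.9% and 19.2% in that order.

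Among the energy carriers, SLC25A25 fell in RCC4+VHL and HepG2 cells, and SLC25A3, SLC25A4 and SLC25A5 moved by about 0.20 or less on the log2 scale. SLC25A25 is a calcium-regulated carrier that trades ATP-Mg for phosphate and so sets the adenine nucleotide pool of the matrix (chr9:130830480-130871524, forward strand, GRCh37). It went from 24.0, 22.3 and 27.4 to 10.6, 11.4 and 11.4 CPM in HepG2 cells, a fall of 1.15 on the log2 scale (SE 0.09, adjusted p = 5.78e-07). In RCC4+VHL cells it went from 18.4, 16.8 and 17.1 to 9.77, 8.91 and 10.2 CPM, a fall of 0.85 (SE 0.08, adjusted p = 3.88e-09). In both lines hypoxic levels were well apart from normoxic ones. HKC-8 samples overlapped, with 31.96, 37.6 and 25.3 CPM in normoxia and 26.5, 32.7 and 20.7 CPM in hypoxia, and the log2 fold change was −0.24 ± 0.18 (adjusted p = 0.378). Within each replicate number the hypoxic HKC-8 value was the lower one, and with the block the fit gave −0.25 ± 0.06 (adjusted p = 0.0107).

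Its relative SLC25A24 rose by 0.29 in HepG2 (SE 0.07, adjusted p = 0.00593) and by 0.13 in RCC4+VHL cells (SE 0.04, adjusted p = 0.00413), the latter giving 0.05 (adjusted p = 0.264) when scaled by library totals alone. SLC25A3, the phosphate carrier that feeds ATP synthase, gave −0.20 in HKC-8 (adjusted p = 0.15) and 0.05 in RCC4+VHL (adjusted p = 0.198), and in HepG2 the value was −0.0014 (adjusted p = 0.987). SLC25A5, the main ADP/ATP exchanger of dividing cells, gave −0.20, −0.18 and −0.17 in that order. Of these the SLC25A5 value of RCC4+VHL passed (SE 0.03, adjusted p = 5.38e-05, but 0.0789 in the fit of all 18 samples), and with the block in HKC-8 both did (adjusted p = 0.0166 for SLC25A3 and 0.0126 for SLC25A5). SLC25A5 in HepG2 just missed the threshold (adjusted p = 0.0541). It was called lower there by DESeq2, without a low-count filter, with library totals alone and with the block. SLC25A4, the exchanger typical of heart and muscle, was not called in hypoxia in any line, at 0.14, 0.08 and 0.08.

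SLC25A6, a further ADP/ATP exchanger, lies in the pseudoautosomal region, which the annotation places on both sex chromosomes. It had 3386, 491 and 313 counts in normoxic HKC-8 samples, 418, 635 and 395 in hypoxic ones, 42 to 188 in RCC4+VHL and 0 in all 6 HepG2 samples. Of the other 17 protein-coding genes annotated on both sex chromosomes, 15 were at 0 in every HepG2 sample, 7 in RCC4+VHL and 5 in HKC-8. The part of read mapping in these counts was not tested, and SLC25A6 is not read as a level here. Leaving it out changed no hypoxia count and removed 1 lower call from each comparison of normoxic lines.

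Among carriers of amino acids and carnitine, more were called lower than higher in each line, though at most 5 of 10. SLC25A12, which exports aspartate for glutamate in the malate-aspartate shuttle (chr2:172639915-172864766, reverse strand, GRCh37), fell from 44.2, 44.2 and 44.7 to 23.6, 25.3 and 25.6 CPM in HKC-8 cells. That was a fall of 0.84 on the log2 scale (SE 0.08, adjusted p = 0.000274), with the groups far apart. In RCC4+VHL cells it went from 25.5, 25.6 and 27.1 to 21.2, 24.8 and 22.7 CPM, a fall of 0.18 (SE 0.06, adjusted p = 0.0235), which did not pass without normoxic replicate 3 (adjusted p = 0.0826), hypoxic replicate 1 (0.126) or hypoxic replicate 3 (0.0575). In HepG2 the log2 fold change was −0.19 ± 0.08 (adjusted p = 0.0941) and the groups overlapped. SLC25A13, which does the same exchange and is the form of the liver, gave −0.14, −0.10 and −0.13, of which the RCC4+VHL value passed (adjusted p = 0.0369). That call, like those of SLC25A10 (−0.14), SLC25A23 (−0.12) and SLC25A38 (−0.13) in the same line, did not hold when single samples were left out. SLC25A10 was lost without normoxic replicate 2 or hypoxic replicate 3, and each of the other three without at least 4 of the 6 samples in turn, with adjusted p-values up to 0.239. None of these calls passed in the fit of all 18 samples, and SLC25A38 in RCC4+VHL also missed the threshold by DESeq2 (adjusted p = 0.0502) and without a low-count filter (0.0624).

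SLC25A20, which carries acylcarnitines inward for fatty acid oxidation, fell by 0.50 in HKC-8 (SE 0.11, adjusted p = 0.0145) and by 0.43 in HepG2 cells (SE 0.10, adjusted p = 0.00312), and gave −0.19 ± 0.14 in RCC4+VHL (adjusted p = 0.286). Its HKC-8 call was lost without normoxic replicate 1 (adjusted p = 0.0695) or hypoxic replicate 1 (0.0535). SLC25A15, the ornithine carrier of the urea cycle, fell by 0.40 in HKC-8 (SE 0.12, adjusted p = 0.0397), from 31.98, 36.3 and 29.0 to 23.0, 27.4 and 22.8 CPM, and lost its call without normoxic replicate 1 or 2 or hypoxic replicate 1 or 3 (adjusted p = 0.11 to 0.145). SLC25A44, a carrier of branched-chain amino acids, fell by 0.52 in HepG2 (SE 0.07, adjusted p = 6.89e-05) and by 0.35 in RCC4+VHL (SE 0.06, adjusted p = 1.63e-05). SLC25A29, for basic amino acids, fell by 0.55 in HepG2 (SE 0.11, adjusted p = 0.002) and gave −0.20 in HKC-8 and −0.09 in RCC4+VHL, neither past the threshold. SLC25A38, which brings in glycine for heme, fell by 0.27 in HepG2 (SE 0.06, adjusted p = 0.00534). With the replicate block SLC25A44 (−0.24, adjusted p = 0.00816), SLC25A38 (−0.20, 0.0238) and the glutamate carrier SLC25A22 (−0.29, 0.0312) were also called lower in HKC-8.

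SLC25A45 went the other way. It stood at 0.384, 0.456 and 0.330 CPM in normoxic HKC-8 cells and at 1.25, 1.14 and 1.05 CPM in hypoxia, from 30 to 37 and 87 to 111 counts, a log2 fold change of 1.56 ± 0.26 (adjusted p = 0.00488). In HepG2 it stood at 1.97, 0.918 and 1.39 against 2.29, 2.35 and 2.28 CPM, and the change of 0.69 ± 0.24 (adjusted p = 0.0363) did not pass without normoxic replicate 2 or 3 or any 1 hypoxic sample, with adjusted p-values of 0.0525 to 0.128, nor with library totals alone (0.0594) or in the fit of all 18 samples (0.0524). Of 10 tested members of this group, 1 rose and 3 fell in HKC-8, 0 rose and 5 fell in RCC4+VHL, and 1 rose and 4 fell in HepG2. The shares that fell were 12.8%, 44.2% and 37% of all tested members and 9.12%, 24.2% and 19.2% of all genes.

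Most other cofactor carriers fell in HepG2 cells, where 7 of 11 were lower and only SLC25A36 was higher. In that line 37% of all tested members and 19.2% of all genes were lower, and the group was not tested against either. SLC25A17, a carrier of CoA and other cofactors that sits in peroxisomes, fell by 0.43 in HKC-8 (SE 0.09, adjusted p = 0.011), by 0.26 in RCC4+VHL (SE 0.05, adjusted p = 5.34e-05) and by 0.30 in HepG2 (SE 0.08, adjusted p = 0.00748), with no overlap of groups in any line. Its HKC-8 call was lost without normoxic replicate 1 (adjusted p = 0.0587) or hypoxic replicate 1 (0.0539). SLC25A16, a CoA carrier, fell by 0.53 in HepG2 (SE 0.11, adjusted p = 0.00169) and by 0.45 in HKC-8 (SE 0.11, adjusted p = 0.0236), and gave 0.08 ± 0.09 in RCC4+VHL. In HKC-8 that call was lost without either of normoxic replicates 1 and 2 or hypoxic replicates 1 and 2 (adjusted p = 0.0524 to 0.0942). SLC25A51, which brings in NAD, fell by 0.32 in HepG2 (SE 0.08, adjusted p = 0.00715), and SLC25A39, for glutathione, fell by 0.30 in RCC4+VHL (SE 0.03, adjusted p = 1.33e-07) and by 0.20 in HepG2 (SE 0.06, adjusted p = 0.0153), the HepG2 call being lost without hypoxic replicate 1 (adjusted p = 0.0935) or 2 (0.0611). With the replicate block, SLC25A40, a relative of SLC25A39, was called higher in HKC-8 (0.30, adjusted p = 0.00827).

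SLC25A42, which imports CoA (chr19:19174803-19223839, forward strand, GRCh37), and SLC25A37, or mitoferrin-1, which imports iron for heme and iron-sulfur clusters (chr8:23386469-23432976, forward strand), were called in opposite directions in HKC-8 and HepG2 cells. SLC25A37 stood at 18.7, 18.5 and 18.5 CPM in normoxic and 27.9, 24.0 and 29.1 CPM in hypoxic HKC-8 cells, a log2 fold change of 0.54 ± 0.10 (adjusted p = 0.0076). In HepG2 it went from 10.5, 12.5 and 10.9 to 8.57, 8.69 and 7.34 CPM, a fall of 0.46 (SE 0.11, adjusted p = 0.00568). In RCC4+VHL the groups overlapped and the change was 0.02 ± 0.08 (adjusted p = 0.87). Erythroid genes, which mark the tissue where mitoferrin-1 is best known, summed to at most 0.44 CPM in any sample. SLC25A28, mitoferrin-2, fell by 0.40 in HepG2 (SE 0.12, adjusted p = 0.0151), a call lost without normoxic replicate 1, hypoxic replicate 1 or hypoxic replicate 3 (adjusted p = 0.0591 to 0.0732). It gave −0.43 ± 0.14 in HKC-8 (adjusted p = 0.0637), and with the block −0.44 ± 0.11 (adjusted p = 0.00964).

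SLC25A42 stood at 5.05, 3.51 and 5.81 CPM in normoxic and 8.62, 8.09 and 7.69 CPM in hypoxic HKC-8 cells, a log2 fold change of 0.77 ± 0.18 (adjusted p = 0.0205). In HepG2 it was several times more abundant, at 25.5, 24.4 and 21.5 against 19.2, 21.2 and 20.2 CPM, and fell by 0.24 (SE 0.09, adjusted p = 0.0433). The groups were apart in both lines, by a narrow margin in HepG2, where no call remained without any 1 sample other than normoxic replicate 3 (adjusted p = 0.0603 to 0.162). The HKC-8 call was lost without normoxic replicate 1 (adjusted p = 0.0692) or hypoxic replicate 1 (0.0829).

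The difference between HepG2 and HKC-8 responses was tested as an interaction of line and oxygen over 12 samples, with RCC4+VHL left out because its labels, unlike the study's text, give another exposure. Sample names of hypoxic HKC-8 give 0.1% oxygen beside 0.5% in the labels, so line and dose may differ together here. Of 48 tested members, 4 were called, beside 9.3% of all genes in either direction. SLC25A12 was 0.65 ± 0.12 higher on the log2 scale in its HepG2 response (adjusted p = 0.00308). SLC25A37 had a difference of −0.998 ± 0.15 (adjusted p = 0.000745), SLC25A42 of −0.998 ± 0.21 (adjusted p = 0.0061) and SLC25A25 of −0.90 ± 0.23 (adjusted p = 0.0206). The SLC25A25 call was lost without HepG2 normoxic replicate 3 (−0.81, adjusted p = 0.0525). MPC1 and MPC2 had −0.48 ± 0.15 (adjusted p = 0.0562) and −0.46 ± 0.16 (adjusted p = 0.0825), and with the replicate block −0.48 ± 0.10 (adjusted p = 0.00407) and −0.45 ± 0.10 (adjusted p = 0.00442). With the block 3 members were higher and 6 lower, beside 20.1% of all genes. With scaling by library totals alone 1 was higher and 7 lower, beside 3.04% and 6.23% of all genes.

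UCP2, the widely expressed uncoupling protein, fell by 0.37 on the log2 scale in RCC4+VHL cells, from 162, 156 and 162 to 127, 119.8 and 122 CPM (SE 0.04, adjusted p = 1.24e-08). It gave −0.19 ± 0.11 in HKC-8 (adjusted p = 0.244) and 0.14 ± 0.11 in HepG2 (adjusted p = 0.329). Its relative SLC25A30, first described in kidney, fell by 0.34 in RCC4+VHL (SE 0.04, adjusted p = 1.61e-07), and in HKC-8 gave −0.25 with an adjusted p of 0.135 and, with the block, 0.0322. UCP1, the heat-producing protein of brown fat, was at 0 counts in all 12 kidney line samples, which allows up to 0.0306 to 0.0714 CPM at 3 counts, and had 0 to 10 counts in HepG2. UCP3, its relative of muscle, was tested in HKC-8 alone, with 0.360, 0.382 and 0.352 against 0.251, 0.225 and 0.291 CPM and a log2 fold change of −0.51 (adjusted p = 0.285). The 4 fat and muscle markers summed to at most 0.557 CPM in the kidney lines and to 9.09 to 17.8 CPM in HepG2, mostly from ACTA1. SLC25A43, of unknown cargo, rose by 0.29 in RCC4+VHL (SE 0.05, adjusted p = 2.5e-05), and SLC25A46, which acts on the outer membrane, gave −0.18 (adjusted p = 0.163), 0.08 (0.0996) and −0.02 (0.837) in the 3 lines and −0.18 ± 0.06 in HKC-8 with the block (adjusted p = 0.0274). SLC25A14, SLC25A18, SLC25A21, SLC25A26, SLC25A27, SLC25A32, SLC25A41 and SLC25A53 passed the test in no line, with or without the block.

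In normoxia the lines stood far apart in some carriers, with 19.8 times as much MPC1, 16.6 times as much UCP2 and 10.1 times as much MPC2 RNA in the highest line as in the lowest. Between HepG2 and RCC4+VHL cells 14 of 46 tested members were at least 2-fold higher and 9 at least 2-fold lower in HepG2, beside 28.1% and 21.5% of all genes. Between HepG2 and HKC-8 there were 10 higher and 7 lower in HepG2, beside 26.3% and 20.8%, and between RCC4+VHL and HKC-8 5 higher and 8 lower in RCC4+VHL, beside 23.2% in each direction. The members' shares, from 10.9% to 30.4%, were close to or below those of all genes. Most of the family was present everywhere, and 42 members could be tested in every line.

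The pyruvate carrier subunits had different orders. MPC1 was highest in HepG2 (112 ± 11.6 CPM, SD, n = 3), followed by RCC4+VHL (7.84 ± 0.225) and HKC-8 (5.67 ± 0.198), and both steps passed the test (adjusted p = 1.26e-13 and 0.000292). MPC2 was highest in RCC4+VHL (308.9 ± 7.71 CPM), followed by HepG2 (81.2 ± 10.0) and HKC-8 (30.7 ± 3.78), again with both steps past the threshold (adjusted p = 3.58e-10 and 9.66e-09). Per kilobase of merged exon, MPC1 stood at 72.7 and MPC2 at 30.8 RPKM in normoxic HepG2 cells, and at 5.09 and 117 RPKM in RCC4+VHL cells, so the subunit with the higher level per length differed between these lines. With the length of the canonical transcript the values were 124 and 36.5 RPKM in HepG2 and 8.67 and 139 RPKM in RCC4+VHL.

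UCP2 was 160.0 ± 3.38 CPM in RCC4+VHL, 152 ± 21.3 in HKC-8 and 9.66 ± 0.391 in HepG2. The kidney lines did not differ beyond their spread (adjusted p = 0.368), and HepG2 stood at −3.95 ± 0.10 (SE) against HKC-8 on the log2 scale (adjusted p = 2.18e-13). SLC25A24 had the same order, at 187 ± 4.25, 167 ± 10.9 and 31.0 ± 2.24 CPM. SLC25A33 and SLC25A42 were highest in HepG2, by 2.09 ± 0.09 and 2.33 ± 0.16 over HKC-8 on the log2 scale, and SLC25A10, the dicarboxylate carrier, by 2.56 ± 0.12. SLC25A30 was 112 ± 2.11 CPM in RCC4+VHL, 47.9 ± 2.23 in HepG2 and 22.1 ± 0.887 in HKC-8. SLC25A4 and SLC25A20 were lowest in RCC4+VHL, with 17.7 ± 1.41 and 4.66 ± 0.229 CPM. Depth moved with the line in the comparisons with HKC-8, as given above.

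**Figure D4:**
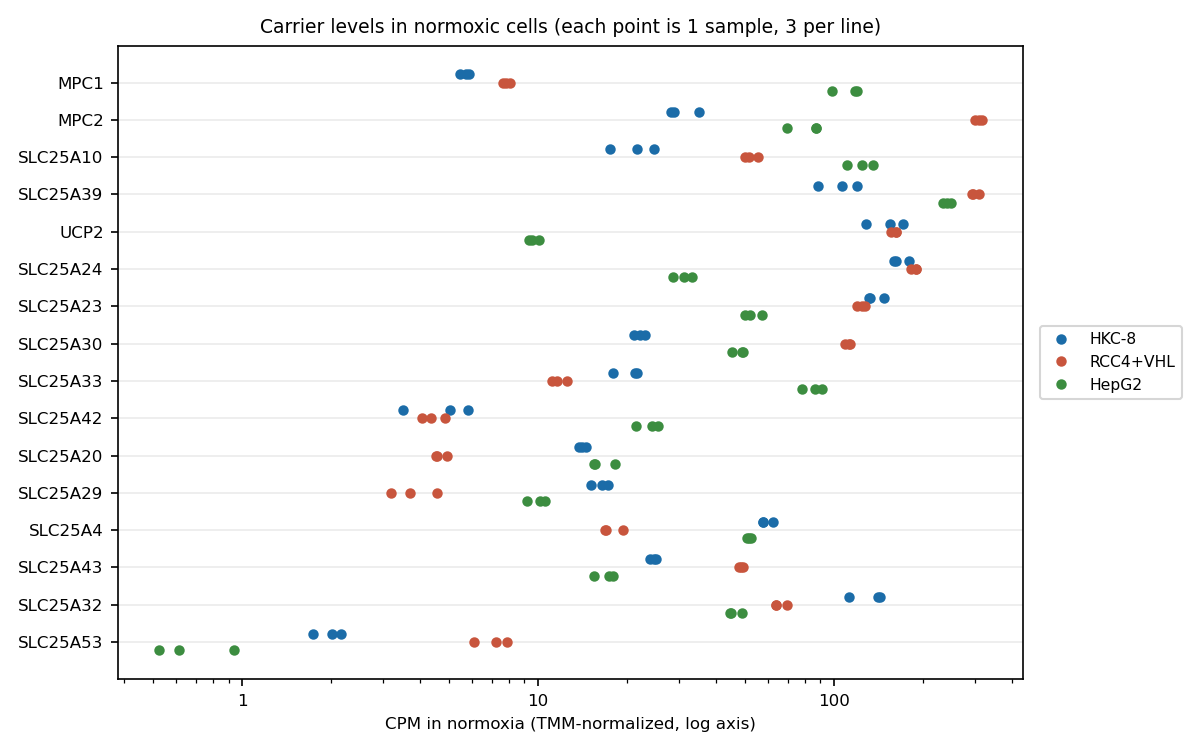
TMM-normalized CPM in normoxia (log axis) of 16 members in the 3 samples of each line, coloured by line. MPC1, SLC25A33 and SLC25A42 are highest in HepG2, MPC2, SLC25A30 and SLC25A53 in RCC4+VHL, and UCP2 and SLC25A24 are low in HepG2 alone.

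Per kilobase, SLC25A5 was the most abundant member in every line by both lengths, at 315 ± 25.7 RPKM in HKC-8, 479 ± 13.0 in RCC4+VHL and 270.3 ± 17.1 in HepG2 by merged exons. Below it the order in RCC4+VHL and HepG2 depended on the length used, with MPC2 and MPC1 next by merged exons and SLC25A39 next by canonical transcripts, while SLC25A3 was next in HKC-8 by both. Before division by length SLC25A3 stood above SLC25A5, at 697 against 490 CPM in HKC-8, 996 against 745 in RCC4+VHL and 498 against 420 in HepG2. The order of these carriers thus rests on the lengths taken. Those were 8896 (merged) and 5984 (canonical) bases for SLC25A3, and 1555 and 1307 for SLC25A5. At the other end, SLC25A2, SLC25A31 and SLC25A52 had at most 2 counts in any sample, SLC25A48 had at most 13, and SLC25A47, a carrier of liver, had 0 in the kidney lines and 6 to 30 counts in HepG2.

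Genes that work beside the carriers were also called lower more often than higher in hypoxia. Of 47 partners listed, 46 were in the files, and 5 rose and 11 fell in HKC-8, 6 rose and 24 fell in RCC4+VHL (46 tested in each), and 9 rose and 15 fell of 45 in HepG2. The shares that rose were 10.9%, 13% and 20% and those that fell 23.9%, 52.2% and 33.3%, so the rising share in HKC-8 and HepG2 was close to that of all genes given above. Their median log2 fold changes were −0.15, −0.13 and −0.08 in that order. SFXN3, a serine carrier of another family, rose in all 3 lines, by 1.25, 0.92 and 1.16 on the log2 scale. The other partners named here were chosen after their values were seen. Small TIM chaperones, which guide carriers to the inner membrane, were among those that fell, such as TIMM10 by 0.42 in RCC4+VHL and 0.57 in HepG2 and TIMM8A by 0.44 and 0.72. Neither was called in HKC-8 (adjusted p = 0.0602 and 0.222), and TIMM13 was not called in HepG2. TOMM20, listed with them for carrier import, was called higher, by 0.24 in RCC4+VHL and 0.56 in HepG2. GOT2, the mitochondrial aminotransferase of the malate-aspartate shuttle, and ISCU, the scaffold for iron-sulfur clusters, fell in all 3 lines, GOT2 by 0.37, 0.19 and 0.24 and ISCU by 0.39, 0.37 and 0.43.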

How the data were processed

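RNA sequencing was analysed for 18 samples of 3 cell lines. The authors trimmed reads with Trim Galore 0.3.3, aligned them to GRCh37 with TopHat 2.0.8b and Bowtie 1.0.0, removed fragments without a unique position with SAMtools 0.1.19 and counted reads per UCSC gene with HTSeq 0.5.4p3 in intersection-strict mode. The deposited values are raw counts per gene. The strand setting of the counting is not given in the sources used here, so overlapping antisense reads may be included.

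Counts were tested with edgeR 4.0.16 in R 4.3.3 (filterByExpr, TMM, glmQLFit, glmQLFTest), with 6 samples per line for hypoxia against normoxia, 12 for the interaction of HepG2 and HKC-8 with oxygen, and the 9 normoxic samples for the lines, where a call also needed a 2-fold difference. Adjustment was by Benjamini-Hochberg over all genes tested. Standard errors are the log2 fold change divided by the root of F. Alternatives were DESeq2 1.42.0, other scalings and low-count filters, leaving out single samples, blocking on the replicate number and fitting all samples at once. SLC25A6 left out and the canonical transcript length were added after seeing the data. Scripts were tested on simulated data. Values in every sample are given for members with a called log2 fold change of at least 0.58 in a line, for MPC1 and MPC2, and for members that the order of levels turns on. The members, their roles and the partner and marker lists were chosen with earlier results of these data known.

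Deviations of same-numbered normoxic and hypoxic samples correlated over genes at 0.103, 0.415 and 0.425 in HKC-8 cells, so numbers were taken to pair those samples. Pairing was taken where every same-numbered correlation was over 0.1. RCC4+VHL (at most 0.031) and HepG2 cells (0.153, 0.0585 and 0.174) did not meet this, though numbers may pair samples in HepG2 too. The block in the interaction paired numbers in both HepG2 and HKC-8. No 2 replicates were alike within sampling noise. Total counts were 40915980 to 97984260 per sample, so that 3 counts equal 0.0306 to 0.0733 CPM, a floor that covers counting error only. Coordinates are of GRCh37 (GENCODE), promoter sequences are from RefSeq (GRCh38.p14, 45 of 55 members matched), and RPKM were computed from TMM-normalized counts. Counts and sums are over all listed genes, of which some are not reported here by name.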

Additional observations from a re-analysis of the deposited data

Results flagged for a closer look

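The hypoxia response of 4 carriers differed between HepG2 and HKC-8 cells by the interaction of line and oxygen (edgeR's quasi-likelihood test, 12 samples, Benjamini-Hochberg adjusted over all genes). These were 4 of 48 tested members, a count close to the 9.3% of all genes called. The oxygen level of hypoxic HKC-8 is uncertain, as given above, so line and dose may differ together. SLC25A37, mitoferrin-1, had a difference of −0.998 on the log2 scale (adjusted p = 0.000745), being higher in 3 of 3 hypoxic HKC-8 samples than in any normoxic one and lower in 3 of 3 HepG2 samples. SLC25A42, the CoA importer, also had −0.998 (adjusted p = 0.0061) and SLC25A25, the ATP-Mg carrier, −0.90 (adjusted p = 0.0206, and 0.0525 without HepG2 normoxic replicate 3). SLC25A12, the aspartate and glutamate carrier, had 0.65 (adjusted p = 0.00308), having fallen more in HKC-8 cells. Groups of 3 samples are too small for a test of single outlying samples.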

How the results depend on the processing

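Of 91 values of single members, each kept its direction and its side of the threshold under median-of-ratios scaling, 90 under DESeq2, 90 without a low-count filter, 89 with the replicate block, 86 under library totals alone and 76 in 1 fit of all 18 samples. Shares of all genes called moved too, as given above for HKC-8. The number of members called in HKC-8, 12, was 22 in the fit of all 18 samples, 25 with the replicate block and 4 to 15 with single samples left out. In RCC4+VHL the number, 22, was 11 in the fit of all samples and 18 to 20 with samples left out, and in HepG2, 21, it was 17 to 21. The interaction count of 4 was 8 in the fit of all samples, 8 with library totals alone, 9 with the replicate block and 4 to 6 with samples left out. In the fit of all samples 7.9% of all genes were higher and 6.6% lower. The normoxic counts of 17 (HepG2 against HKC-8), 13 (RCC4+VHL against HKC-8) and 23 (HepG2 against RCC4+VHL) were 16 to 20, 13 to 16 and 24 to 28 with samples left out, 14, 11 and 21 with at least 10 counts required in every sample, and 21, 16 and 27 without a low-count filter. Of the 91 values, 21 lost a call without at least 1 sample and 2 that were not called changed sign. SLC25A35 in HKC-8 went from −0.05 to 0.23 without normoxic replicate 3 and to 0.01 without hypoxic replicate 3 (range over samples left out −0.26 to 0.23), and SLC25A45 in RCC4+VHL went from 0.13 to −0.10 without normoxic replicate 1 and −0.03 without hypoxic replicate 3 (range −0.10 to 0.34). The cause was not tested. Library totals alone moved the median of all genes by −0.083 in RCC4+VHL and −0.093 in HepG2, where 2 members were then higher and 23 lower, and 3 higher and 22 lower. In RCC4+VHL cells samples share only a number, and 1 of 3 correlated best with its own, beside 3 of 3 in HepG2 and 2 of 3 in HKC-8. Every same-numbered correlation was over 0.1 in HKC-8 alone, and pairing in HepG2 was left undecided. With the replicate block in HepG2, 4 members rose and 18 fell (8.7% and 39.1%), beside 21.7% and 21.3% of all genes. The pairing block changed no called member value in HKC-8 or in the interaction to a value that missed the threshold. With 3 samples a group, small changes of rare transcripts such as SLC25A34, SLC25A35 and SLC25A45 were near the limit of detection.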
